A study of Homo sapiens with 14 samples.

Results

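The genes described here encode 45 core proteins of the spliceosome, the machine that removes introns from nuclear pre-mRNA. They were matched by gene symbol among 78686 gene identifiers. All 45 were found, and all 45 had enough counts to be tested in every comparison. By role they comprise 7 Sm ring proteins, 3 U1 proteins, 11 U2 proteins, 6 U5 proteins, 6 proteins of U4/U6 and the tri-snRNP, 8 proteins associated with PRP19, and 4 helicases and step factors. The choice did not use expression in these libraries, but it was made with earlier results of the same data known.

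Each small nuclear ribonucleoprotein (snRNP) consists of a small nuclear RNA, a ring of Sm proteins (LSM proteins in U6) and proteins of its own. U1 recognises the 5′ splice site and U2 the branch point. U4/U6 and U5 then join as a tri-snRNP, and helicases rebuild the assembly into an active spliceosome, with PRP19-associated proteins holding the catalytic RNA in place. Every cell needs this machinery for nearly all of its mRNAs.

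RNA came from HCT116, a human colon carcinoma line, in which osTIR1(F74G) was present and SAF-A, the product of HNRNPU, was fused to mAID and Halo tags. All 7 groups, vehicle included, carried these alleles. With this form of TIR1, the auxin analog 5-Ph-IAA marks a protein that bears mAID for degradation. The labels give neither the promoter of osTIR1 nor whether the cells were 1 clone. A time-course set held a DMSO vehicle and cells given 5-Ph-IAA for 3 h or for 12 h. A second set, called the Nutlin set here, held 5-Ph-IAA with Nutlin, Nutlin alone (an inhibitor of MDM2 that stabilises p53), 5-Ph-IAA alone and its own DMSO vehicle. Treated libraries of the Nutlin set are labelled 3 h, without saying which drug that time belongs to, and no dose is given. Each group had n = 2 stranded libraries of rRNA-depleted total RNA. The labels do not say that replicates were separate cultures, so p-values may measure only technical spread between these samples.

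Expected counts per library ran from 29.6 to 35.1 M in the time-course set, where M stands for 1000000 counts, except 12 h replicate 2 with 3.54 M. In the Nutlin set they ran from 12.6 to 17.2 M. In the shallow 12 h library the members had from 63 counts for SF3A2 to 2260 counts for SF3B1. Levels per length are given as TPM, transcript shares scaled to a sum of 1000000, and other levels as CPM, counts scaled to the same total with TMM factors. Epithelial markers were high in all 14 libraries (KRT8 at 1271 TPM or more, EPCAM at 124.9 TPM or more), while CDX2 lay between 1.26 and 4.2 TPM and VIL1 at or below 0.26 TPM. Markers of other cell types (blood, fibroblast, endothelium, neuron, liver) summed to between 0.67 and 6.84 TPM, with CD3E and DCN at 0 in all 14. HNRNPU mRNA had 509 and 544 CPM in DMSO, 524 and 547 CPM at 3 h, and 671 and 636 CPM at 12 h, which is no check of the protein that 5-Ph-IAA removes. The replicates differed by more than counting error in all groups, most between the Nutlin libraries, whose chi-square per degree of freedom was 22.2 against 3.28 to 14.8 in the others. Nutlin replicate 2 stood apart, and the main comparisons with the Nutlin group are given also with each Nutlin library left out. Comparisons between the other groups of the Nutlin set share an estimate of spread with the Nutlin libraries. They are given also from a fit of the compared groups only.

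Promoters of 4 members are shown because these members passed at 12 h against DMSO under all 12 alternative analyses, PRPF8 and SNRNP200 higher and SF3B1 and SNRPE lower. Each sequence is the 250 bases before the start of transcription in RefSeq (GRCh38.p14), 5′ to 3′ on the gene's strand, with CCGGAA or its reverse complement TTCCGG in capitals. CCGGAA contains the GGAA core that ETS transcription factors bind.
PRPF8, chr17:1684868-1685117, - strand: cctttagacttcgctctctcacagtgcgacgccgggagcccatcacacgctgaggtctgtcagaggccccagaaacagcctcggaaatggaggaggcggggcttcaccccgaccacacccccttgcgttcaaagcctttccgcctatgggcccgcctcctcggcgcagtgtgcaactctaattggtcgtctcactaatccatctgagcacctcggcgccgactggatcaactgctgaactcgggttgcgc
SNRNP200, chr2:96305547-96305796, - strand: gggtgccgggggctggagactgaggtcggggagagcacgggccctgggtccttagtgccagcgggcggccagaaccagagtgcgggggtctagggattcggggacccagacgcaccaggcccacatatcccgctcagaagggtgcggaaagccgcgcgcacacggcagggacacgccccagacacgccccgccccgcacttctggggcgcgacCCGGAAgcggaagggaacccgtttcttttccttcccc
SF3B1, chr2:197435029-197435278, - strand: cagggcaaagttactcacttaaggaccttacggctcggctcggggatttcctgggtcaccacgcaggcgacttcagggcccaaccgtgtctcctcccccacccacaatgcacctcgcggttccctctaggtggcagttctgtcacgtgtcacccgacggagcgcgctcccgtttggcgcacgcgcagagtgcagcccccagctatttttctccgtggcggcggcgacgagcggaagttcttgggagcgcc
SNRPE, chr1:203861597-203861846, + strand: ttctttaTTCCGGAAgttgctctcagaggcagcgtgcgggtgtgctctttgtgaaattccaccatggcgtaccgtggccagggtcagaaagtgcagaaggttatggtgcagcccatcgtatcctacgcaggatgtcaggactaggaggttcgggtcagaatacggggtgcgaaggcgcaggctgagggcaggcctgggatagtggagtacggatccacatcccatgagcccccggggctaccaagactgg
The hexamer occurred 1 time in the SNRNP200 window, 2 times in that of SNRPE (overlapping, once on each strand), and not in those of PRPF8 or SF3B1. The RefSeq start of SNRPE lay 244 bases inside its GENCODE 29 gene. Nearly all of the SNRPE window, with both matches, therefore lay inside that gene and not before it. RefSeq promoters were matched for 42 of the 45 members, all but SNRPD1, SF3B3 and PRPF3. CCGGAA, on either strand, was in 25 of 42 member promoters (59.5%), against 24.8% of 10613 promoters of tested protein-coding genes and 14.8% of all 27305 promoters. CCAAT (or ATTGG) was in 16 of 42 (38.1%), against 35.3% and 33.04% in the same sets, and TATAAA (or TTTATA) in 1 of 42 (2.38%), against 5.63% and 11.1%. In 18 of 42 windows the RefSeq start lay 100 or more bases inside the GENCODE 29 gene. CCGGAA was in 12 of those 18 and in 13 of the other 24. A match is a string of letters and not evidence of binding.

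Levels per length (TPM) spanned about 2 orders of magnitude among the members. SNRPD2, a subunit of the Sm ring, was the most abundant member of both vehicles, with 822 and 784 TPM in the time-course set and 525 and 599 TPM in the Nutlin set. SF3A2, a subunit of SF3a in U2, was the least abundant in both, with 6.99 and 9.33 TPM in the time-course set and 9.5 and 13.68 TPM in the Nutlin set. The Sm ring, which is shared by several snRNPs, had the highest median, 192 TPM over 7 genes in the time-course vehicle. Proteins that sit in 1 snRNP were lower, with a median of 58.0 TPM for U1, 68.8 TPM for U2, 44.9 TPM for U5 and 27.9 TPM for U4/U6 and the tri-snRNP. Those of the PRP19-associated group had a median of 21.5 TPM and the helicases and step factors 22.2 TPM.

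Within the Sm ring, levels in the time-course vehicle ran from 84.3 ± 15.1 TPM for SNRPD3 to 803 ± 26.7 TPM for SNRPD2 (SD, n = 2), although the ring holds each subunit once. SNRPG followed at 299.7 ± 4.26 TPM, SNRPB at 269 ± 30.1 TPM and SNRPF at 192 ± 40.7 TPM, and the libraries of these 3 genes did not overlap. Among U1 proteins, SNRPC, which steadies the pairing of U1 with the 5′ splice site, had 128.7 and 129.8 TPM, while SNRPA had 56.3 and 59.7 TPM and SNRNP70 had 56.0 and 51.9 TPM. SNRPC was above both, and the libraries of SNRPA lay above those of SNRNP70 by a narrow margin. Among U2 proteins, SF3B6, which lies next to the branch point, was highest at 239 and 235 TPM. SF3B1, the largest SF3b subunit and a frequent site of mutation in blood cancers, had 143 and 155 TPM.

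Among U5 proteins, the WD40 protein SNRNP40 was highest (89.7 and 93.0 TPM) and PRPF6, which bridges U5 with U4/U6, was lowest (20.9 and 20.5 TPM). PRPF8, the scaffold around the catalytic RNA, had 40.1 and 46.6 TPM in the time-course vehicle, and 70.5 and 87.9 TPM in the Nutlin set's vehicle. PRPF31, which binds U4, led its group at 42.8 and 33.4 TPM, BUD31 led the PRP19-associated group at 132.9 and 128.7 TPM, and DHX15, the helicase that takes spent spliceosomes apart, led the helicases at 122 and 126 TPM. The rank order of the 45 members was close between the vehicles (Spearman 0.97 over 45 genes that share libraries, given as a description). What separates the sets besides depth is not known, and set, depth and handling cannot be told apart.

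**Figure D1:**
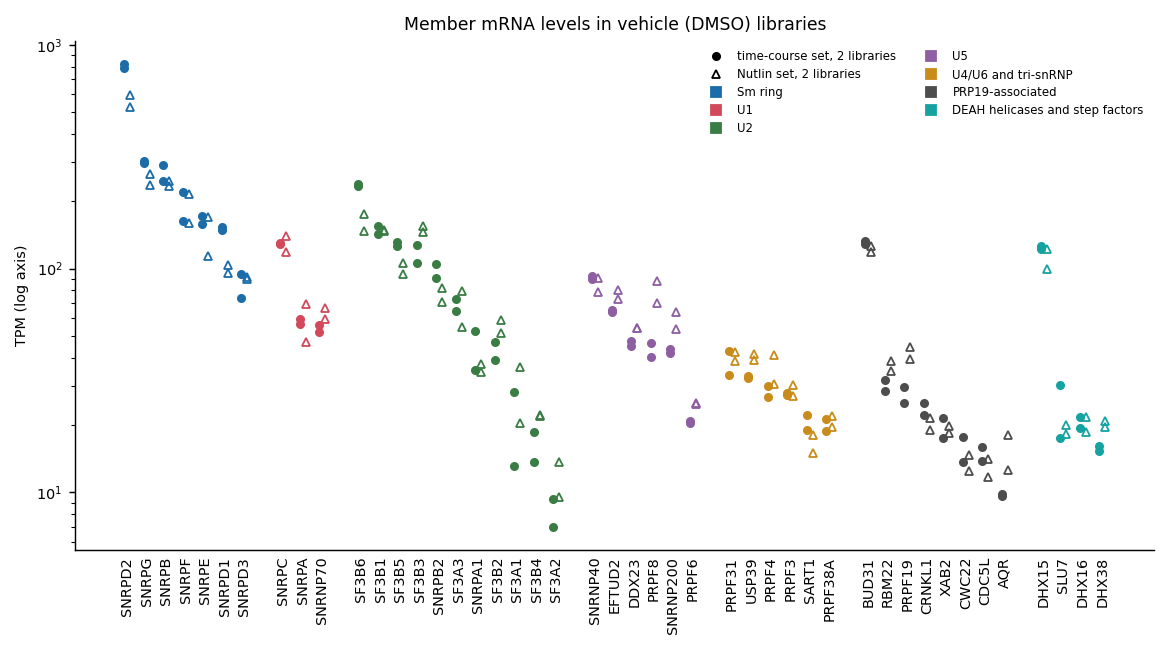
Level of each of the 45 members in the DMSO libraries, in TPM on a log axis, ordered by level within each group of proteins; filled circles are the 2 time-course libraries and open triangles the 2 Nutlin-set libraries. The Sm gene SNRPD2 is highest and the U2 gene SF3A2 lowest in both sets.

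The 3 h comparison asked which members had moved soon after SAF-A was targeted. No member passed the test at 3 h of 5-Ph-IAA against DMSO (edgeR quasi-likelihood test with Benjamini-Hochberg adjustment, threshold 0.05), where 0.0682% of 19049 genes passed. At an unadjusted p under 0.05 there were 4 members (8.89%), against 6.45% of all genes. DESeq2 also called 0. The median log2 fold change was 0.03 for the members and -0.01 for all genes tested, with a median SE of 0.09 per member.

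PRPF4, a U4/U6 protein, had the lowest adjusted p at 3 h (0.544), with 157 and 152 CPM at 3 h, against 134 and 107 CPM in DMSO. Its log2 fold change was 0.35 ± 0.10. SNRPA1, which with SNRPB2 binds the U2 RNA, had 41.8 and 37.8 CPM at 3 h, against 43.0 and 60.8 CPM in DMSO (-0.38 ± 0.16), and the Sm gene SNRPF had 78.7 and 78.2 CPM, against 73.1 and 53.7 CPM (0.31 ± 0.12). In these 3 genes the 3 h libraries were close together and the 2 DMSO libraries far apart, without overlap between groups. The U1 gene SNRNP70 had 119 and 123 CPM at 3 h, against 106 and 97.97 CPM in DMSO (0.24 ± 0.09, adjusted p = 0.722). Among the other genes followed in every comparison, SNRPB had a log2 fold change of 0.11 ± 0.09, PRPF8 0.11 ± 0.08, SF3B1 -0.12 ± 0.06, PRPF31 0.17 ± 0.12, PRPF19 0.05 ± 0.09 and DHX15 0.02 ± 0.06. Libraries of 15 members were all higher at 3 h and those of 4 all lower, 33.3% and 8.89% of the members, against 18.7% and 20.1% of all genes. Without DMSO replicate 1, 5 members passed instead of 0 (11.1%, against 1.35% of all genes: PRPF4, SF3B2, SNRPF and PRPF31 higher, SNRPA1 lower), and without the low-count filter PRPF4 passed.

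At 12 h of 5-Ph-IAA the members moved in both directions, and the largest rise of a single gene was that of PRPF8 in U5. By subset, the highest median log2 fold change was 0.31 in U4/U6 and the tri-snRNP, against 0.23 in U5. PRPF8 and the helicase SNRNP200 rose in U5, SF3A1 and SF3B2 rose in U2, and SF3B1 of the same snRNP fell, as did the Sm gene SNRPE. Of 45 members, 8 rose and 2 fell (17.8% and 4.44%), against 3.39% higher and 7.97% lower, or 11.4% in all, of 19049 genes tested. At an unadjusted p under 0.05 there were 20 members (44.4%, against 25.3%), and the 12 h libraries were both above DMSO for 22 members (48.9%, against 22.9%) and both below for 9 (20%, against 27.9%). Higher calls were thus more frequent, and lower calls less frequent, among the members than among all genes; the difference was not tested. The median log2 fold change was 0.10 for the members and -0.00 for all genes. The members together took 0.699% and 0.683% of all counts in DMSO, 0.700% and 0.705% at 3 h, and 0.753% and 0.755% at 12 h. In bulk RNA, a change in every cell and a change in the make-up of the culture cannot be told apart.

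Among the 6 U5 proteins, 3 rose, 0 fell and 3 did not pass. PRPF8 (ENSG00000174231.18, chromosome 17, 1650629 to 1684882, - strand, GRCh38) had 325 and 351 CPM in DMSO, 339 and 388 CPM at 3 h, and 525 and 576 CPM at 12 h. Its 12 h libraries lay far above the other 4, which overlapped. PRPF8 rose by a log2 fold change of 0.70 ± 0.08 at 12 h against DMSO (adjusted p = 0.000449), the largest change of any member, and averaged 551 ± 36.3 CPM, against 338 ± 18.8 CPM (SD, n = 2 each).

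SNRNP200, the helicase that unwinds U4 from U6 (ENSG00000144028.15, chromosome 2, 96274336 to 96305515, - strand), had 263 and 288 CPM in DMSO, 269.7 and 276 CPM at 3 h, and 356 and 383 CPM at 12 h. Both 12 h libraries were above all 4 others, and the log2 fold change against DMSO was 0.42 ± 0.07 (adjusted p = 0.00329). DDX23, the helicase that releases U1 from the 5′ splice site, had 206 and 171 CPM in DMSO, 211 and 217 CPM at 3 h, and 266 and 235 CPM at 12 h, a rise of 0.42 ± 0.09 against DMSO (adjusted p = 0.0134). Its 3 h libraries lay between those of DMSO and 12 h. The other U5 members had 12 h values of 0.05 ± 0.07 for the GTPase EFTUD2, -0.01 ± 0.10 for PRPF6 and -0.08 ± 0.07 for SNRNP40. Summed over the 6 genes, U5 had 1239 and 1248 CPM in DMSO, 1273 and 1337 CPM at 3 h, and 1589 and 1620 CPM at 12 h.

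Among the 11 U2 proteins, 2 rose, 1 fell and 8 did not pass. SF3A1, a subunit of SF3a (ENSG00000099995.19, chromosome 22, 30331988 to 30356947, - strand), had 54.4 and 66.2 CPM in DMSO, 53.6 and 59.6 CPM at 3 h, and 81.7 and 95.3 CPM at 12 h. Its 3 h and DMSO libraries overlapped, and its 12 h libraries were above all of them (0.53 ± 0.12 against DMSO, adjusted p = 0.0143). SF3B2, the SF3b subunit that contacts pre-mRNA upstream of the branch point, had 182 and 137 CPM in DMSO, 194 and 181 CPM at 3 h, and 237 and 221 CPM at 12 h (0.53 ± 0.11, adjusted p = 0.0106). SF3B2 varied more between its DMSO libraries than between 3 h and the higher of them.

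SF3B1 (ENSG00000115524.17, chromosome 2, 197389784 to 197435091, - strand), which clamps the branch point helix, moved the other way. It had 797 and 828 CPM in DMSO, 766 and 734 CPM at 3 h, and 619 and 619 CPM at 12 h. The 3 pairs did not overlap, with DMSO highest and 12 h lowest, and SF3B1 fell by 0.39 on the log2 scale at 12 h against DMSO (SE 0.06, adjusted p = 0.00123). Within U2, then, partners in the same SF3b complex differed in sign, and the U2 sum was 2094 and 2090 CPM in DMSO, 2104 and 2038 CPM at 3 h, and 2010 and 2029 CPM at 12 h. SF3A2 had 14.2 and 17.3 CPM at 12 h, against 10.3 and 13.3 CPM in DMSO, without overlap, but the test did not pass (0.38 ± 0.21, adjusted p = 0.284). The other U2 members lay between -0.17 for SNRPB2 and 0.37 for SF3B4.

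Among the 7 Sm proteins, 1 fell, 0 rose and 6 did not pass. SNRPE had 131 and 126 CPM in DMSO, 133 and 120.4 CPM at 3 h, and 100.2 and 81.9 CPM at 12 h, a fall of 0.47 on the log2 scale against DMSO (SE 0.10, adjusted p = 0.0109). Its 12 h libraries were the lowest pair. SNRPF, its neighbour in the ring, had 85.6 and 84.7 CPM at 12 h, against 73.1 and 53.7 CPM in DMSO (0.43 ± 0.13, adjusted p = 0.053), and SNRPB had 289.5 and 287 CPM, against 379 and 307 CPM (-0.25 ± 0.09, adjusted p = 0.0982). Both depended on the DMSO library kept: SNRPF had 0.69 without replicate 1 and 0.22 without replicate 2, and SNRPB -0.07 and -0.39 in the same order, of which 0.69 and -0.39 passed. SNRPD1, SNRPD2 and SNRPG lay between 0.02 and 0.04 and SNRPD3 at 0.19 ± 0.10. The Sm sum was 1434 and 1333 CPM in DMSO, 1468 and 1392 CPM at 3 h, and 1396 and 1297 CPM at 12 h, with overlap between all groups. RSEM can divide reads among near-identical copies: SNRPE has 10 pseudogenes by symbol, whose counts came to 0.532% of its own, and SNRPB, which has a close relative in SNRPN, had counts that were not whole in 3 of 14 libraries. How reads were divided between them was not tested.

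Of the 3 U1 proteins none passed. SNRNP70, which binds the first stem of U1 RNA, had 131 and 115 CPM at 12 h, against 106 and 97.97 CPM in DMSO (0.29 ± 0.09, adjusted p = 0.0617). SNRPA had 78.5 and 87.4 CPM, against 84.5 and 76.3 CPM (0.03 ± 0.10), and SNRPC had 101 and 110.4 CPM, against 111 and 109 CPM (-0.07 ± 0.08). The SNRNP70 libraries did not overlap between groups, and those of SNRPA and SNRPC did.

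The 6 genes of U4/U6 and the tri-snRNP all had log2 fold changes above 0 at 12 h, with a median of 0.31, but PRPF3 alone passed. PRPF3 had 82.5 and 78.3 CPM in DMSO, 78.2 and 76.1 CPM at 3 h, and 104 and 97.0 CPM at 12 h (0.33 ± 0.09 against DMSO, adjusted p = 0.0306). Its partner PRPF4 had 158 and 148 CPM at 12 h, against 134 and 107 CPM in DMSO (0.35 ± 0.10, adjusted p = 0.0504), a level it already had at 3 h. PRPF31 had 108 and 111 CPM at 12 h, against 99.0 and 74.3 CPM in DMSO (0.33 ± 0.12, adjusted p = 0.101). The remaining members, SART1, USP39 and PRPF38A, had values of 0.29, 0.18 and 0.04. In 5 of the 6 genes the 12 h libraries were both above the DMSO libraries, as they were in 22.9% of all genes tested.

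In the PRP19-associated group 1 of 8 rose and 0 fell. PRPF19, a ubiquitin ligase that acts as the spliceosome is activated, had 74.3 and 80.3 CPM in DMSO, 82.9 and 77.3 CPM at 3 h, and 99.3 and 105 CPM at 12 h (0.40 ± 0.09 against DMSO, adjusted p = 0.0155). Its partner CDC5L had 0.01 ± 0.08, and the group ran from -0.19 for the helicase AQR to PRPF19. Of the 4 helicases and step factors, DHX38, which acts between the catalytic steps, rose by 0.40 ± 0.09 (adjusted p = 0.0143), with 86.4 and 78.1 CPM in DMSO, 93.0 and 92.4 CPM at 3 h, and 105 and 115 CPM at 12 h. Its 3 pairs of libraries did not overlap. DHX16, the helicase that starts catalysis, had 0.32 ± 0.11 (adjusted p = 0.0805), SLU7, which acts in 3′ splice site choice, 0.14 ± 0.11, and DHX15 -0.13 ± 0.06 (adjusted p = 0.192).

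**Figure D2:**
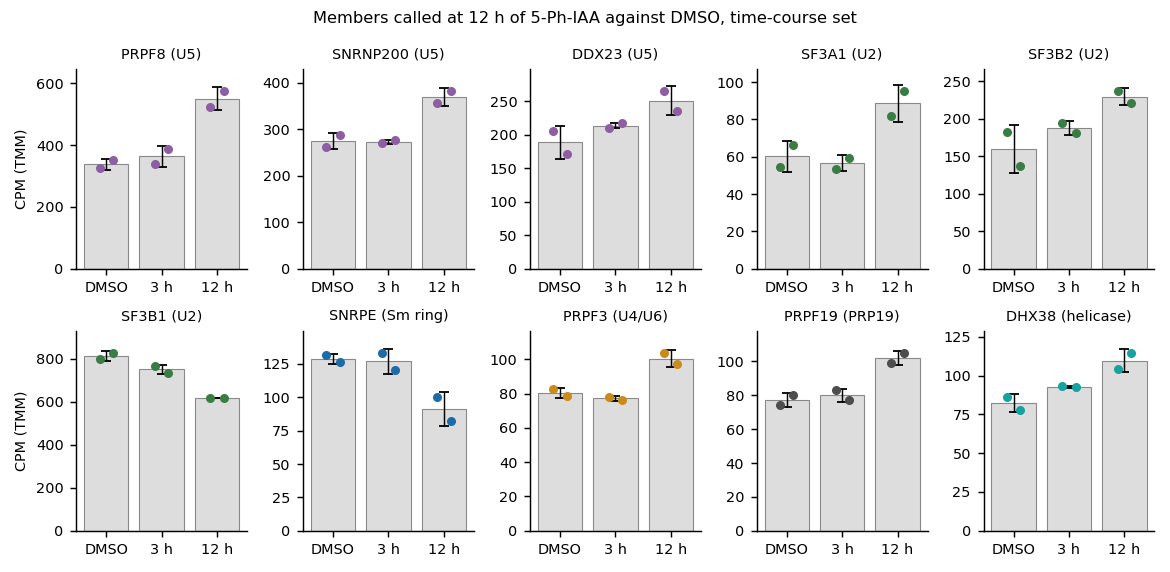
CPM after TMM scaling of the 10 members that passed at 12 h of 5-Ph-IAA against DMSO, in the time-course set; points are libraries, bars are means of n = 2 and error bars are SD. PRPF8 stands at 525 and 576 CPM at 12 h with no other library above 388 CPM, while SF3B1 and SNRPE are lowest at 12 h.

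PRPF8, SNRNP200, SF3B1 and SNRPE passed at 12 h under all 12 alternative analyses, and the other 6 did not. After correction for the GC content of each gene's longest transcript, DDX23 (0.27), DHX38 (0.23), PRPF19 (0.22), PRPF3 (0.32) and SF3A1 (0.42) no longer passed, while SNRPB (-0.42), SNRPF (0.85) and DHX15 did, the last with its sign turned (0.31). That correction also brought SF3B1 to -0.22 and PRPF8 to 0.56, and the calls over all genes to 881, against 2163 without it. The longest annotated transcript had 4 exons and 35.2% GC for DHX15, and 4 exons and 35.4% GC for SNRPF. Whether the longest transcript is the form expressed here was not tested, so these corrected values rest on that choice. Without 12 h replicate 1, which leaves only the 3.54 M library, DDX23 (0.33), PRPF19 (0.46), PRPF3 (0.28) and SF3B2 (0.49) were lost. Without the shallow replicate 2, DHX38 and PRPF19 were lost. Leaving out DMSO replicate 1 lost no called member, and leaving out DMSO replicate 2 lost DHX38 (0.33) and PRPF3 (0.30). DESeq2 called 16 (35.6%, against 12.1% of all genes), among them all 10.

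Between 12 h and 3 h of 5-Ph-IAA, 5 members rose and 3 fell (11.1% and 6.67%), against 2.35% higher and 5.79% lower, or 8.14% in all, of all genes. Those that rose were SF3A1 (0.62 ± 0.12, adjusted p = 0.00896), PRPF8 (0.59 ± 0.08, adjusted p = 0.0017), SNRNP200 (0.43 ± 0.07), PRPF3 (0.39 ± 0.09) and PRPF19 (0.34 ± 0.09). Those that fell were SNRPE (-0.45 ± 0.10), SNRPB (-0.35 ± 0.09, adjusted p = 0.0306) and SF3B1 (-0.28 ± 0.06). SNRPB had 289.5 and 287 CPM at 12 h, against 367 and 370.3 CPM at 3 h, a gap far wider than the spread in either pair. This comparison shares the 12 h libraries with the previous one. PRPF8 and SNRNP200 passed in every analysis with a library left out, PRPF19 and SNRPB in none of the 4. Without 3 h replicate 1, no member besides PRPF8 and SNRNP200 passed. By the same contrast PRPF31 had 0.17 ± 0.12, SNRNP70 0.04 ± 0.09 and DHX15 -0.15 ± 0.06. Members whose libraries did not overlap without passing were SF3A2 (0.54 ± 0.21), SF3B4 (0.43 ± 0.18), SNRPA1 (0.31 ± 0.17) and SF3B2 (0.30 ± 0.11).

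Related proteins outside the 45 gave a mixed picture at 12 h against DMSO. Of 8 LSM proteins, most of which form the ring on U6 RNA, 0 rose and 1 fell, LSM5 (63.7 and 56.4 CPM at 12 h, against 80.2 and 92.3 CPM in DMSO, -0.50 ± 0.11, adjusted p = 0.0106). Of 55 tested genes among 56 other spliceosome proteins, 5 rose and 3 fell. Over all genes tested, 3.39% rose and 7.97% fell. Among those that passed were IK, a protein of the activating spliceosome (0.35 ± 0.09), BCAS2, a partner of PRPF19 (-0.40 ± 0.10), and RBM17, a U2-related factor (0.33 ± 0.09). The median of the 55 genes was 0.11, close to that of the members. At 3 h no gene of either list passed.

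In the Nutlin set no member passed in any comparison. For 5-Ph-IAA with Nutlin against DMSO, 0 of 45 passed, where 0.325% of 17251 genes did. At an unadjusted p under 0.05 there was 1 member (DDX23, 2.22%), against 7.26% of all genes. A fit of the compared groups only also called 0 members, where 2.39% of 16422 genes passed. Most members lay slightly below vehicle: 37 of 45 had a log2 fold change below 0, with a median of -0.04, and the median of all genes was -0.00. All 7 Sm genes were among them, from -0.06 for SNRPD1 to -0.20 for SNRPB, with a median of -0.12. Their sum was 1076 and 1052 CPM in 5-Ph-IAA with Nutlin, against 1184 and 1144 CPM in DMSO, and the groups did not overlap. With 2 libraries a group, an exact two-sided permutation test of such a sum cannot go below p = 0.333.

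SNRPB had 273 and 268 CPM in 5-Ph-IAA with Nutlin, against 330.4 and 292 CPM in DMSO (-0.20 ± 0.11, adjusted p = 0.763). DDX23 had 169.7 and 179 CPM, against 222 and 197 CPM (-0.26 ± 0.10, adjusted p = 0.613), SNRNP40 149.8 and 150.5 CPM, against 173 and 166 CPM (-0.18 ± 0.09), and PRPF4 129.8 and 132 CPM, against 139 and 157 CPM (-0.18 ± 0.09). In each of these 4 genes both combination libraries lay under both DMSO libraries. That held for 18 members (40.0%), against 22.3% of all genes, and 3 members had both combination libraries above (6.67%, against 22.7%). PRPF8 (0.10 ± 0.23), SF3B1 (-0.03 ± 0.11), SNRNP70 (-0.06 ± 0.09), PRPF31 (-0.02 ± 0.10), PRPF19 (-0.01 ± 0.17) and DHX15 (-0.14 ± 0.13) did not pass.

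For Nutlin alone against DMSO, 0 of 45 members passed, against 0.464% of all genes, with 2 at an unadjusted p under 0.05 (4.44%, against 10.8% of all genes) and a median of -0.02. BUD31 had 141 and 156 CPM with Nutlin, against 132 and 123 CPM in DMSO (0.22 ± 0.09, adjusted p = 0.432), and CWC22, which leads exon junction proteins to mRNA, had 49.8 and 50.7 CPM, against 57.8 and 58.8 CPM (-0.21 ± 0.09). SLU7 (0.16 ± 0.10) and PRPF31 (0.15 ± 0.10) were likewise higher in both libraries without passing. Without Nutlin replicate 2 these values were 0.14 for BUD31, -0.23 for CWC22, 0.09 for SLU7 and 0.23 for PRPF31, and none passed. Without replicate 1 they were 0.29, -0.20, 0.23 and 0.06, and BUD31 passed (adjusted p = 0.0248). PRPF8 had -0.11 ± 0.23, SF3B1 -0.01 ± 0.11, SNRPB 0.01 ± 0.11, SNRNP70 -0.02 ± 0.09, PRPF19 -0.08 ± 0.17 and DHX15 -0.14 ± 0.13. In the wider list PRPF4B, a kinase of the spliceosome, fell, with 102 and 107 CPM, against 149.7 and 157 CPM (-0.55 ± 0.08, adjusted p = 0.0248), and also passed without Nutlin replicate 1 (-0.52) or 2 (-0.59). For 5-Ph-IAA alone against DMSO, 0 members passed, as did 0 of all genes (0%). At an unadjusted p under 0.05 there were 0 members, against 1.42% of all genes. DESeq2 called 0 members, as did a fit of the compared groups only, where 0.0564% of 15968 genes passed. The furthest members without overlap were SNRPA1 (0.22 ± 0.12), SNRPF (-0.20 ± 0.12), SF3A2 (-0.19 ± 0.35) and SNRPD1 (-0.14 ± 0.09). PRPF8 had 0.00 ± 0.23, SF3B1 0.05 ± 0.11, SNRPB -0.05 ± 0.11, SNRNP70 0.03 ± 0.09, PRPF31 0.00 ± 0.10, PRPF19 -0.06 ± 0.17 and DHX15 0.05 ± 0.13.

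**Figure D3:**
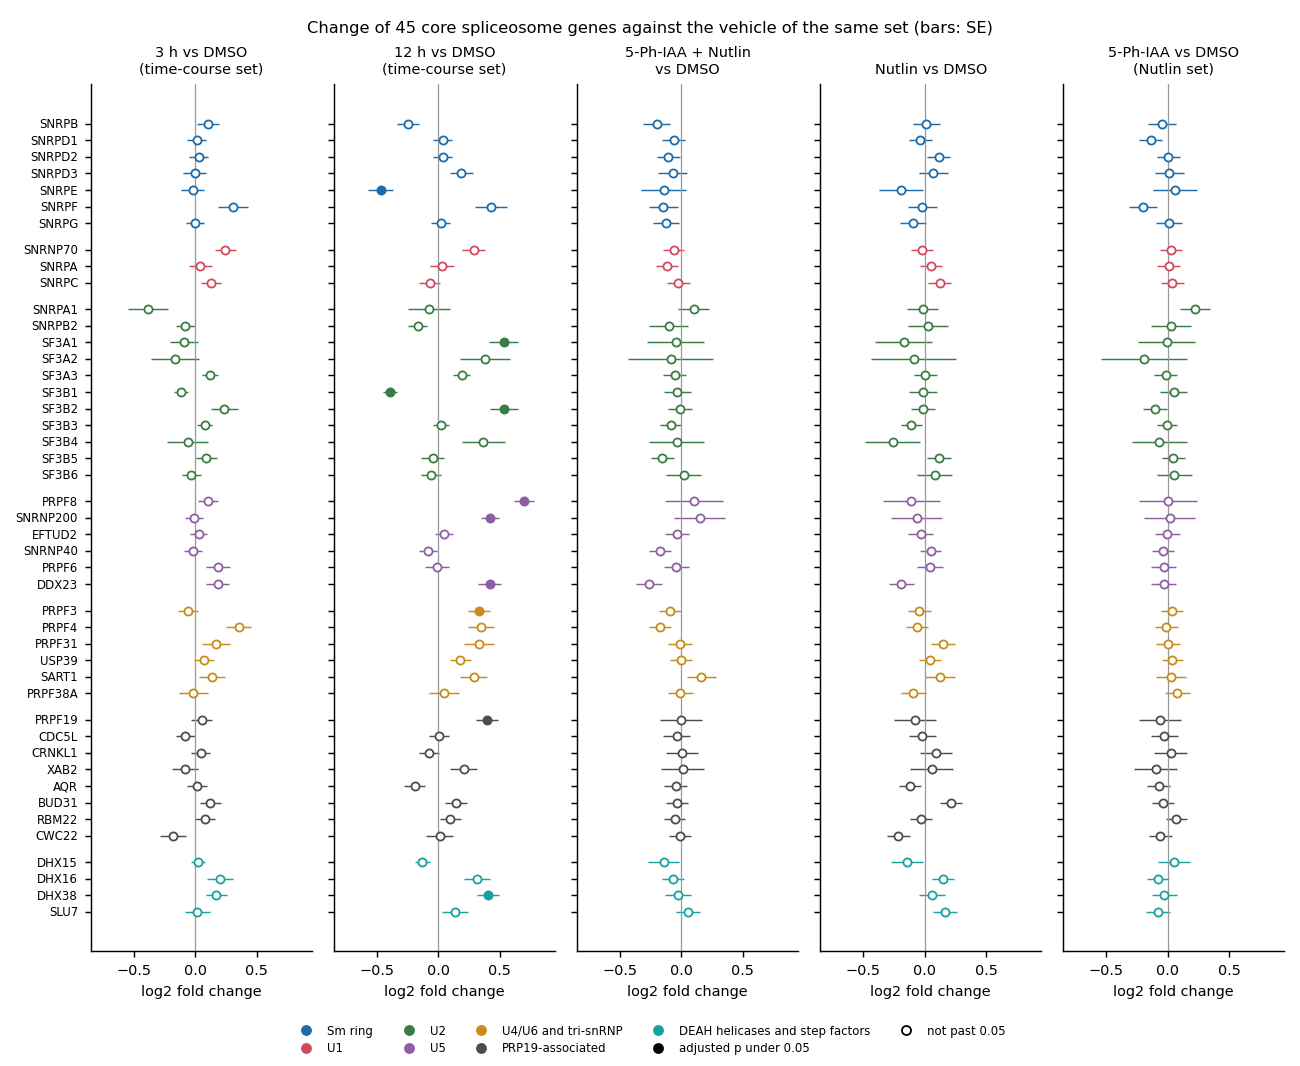
Log2 fold change with SE of the 45 members against the DMSO of the same set, in 5 comparisons, coloured by group of proteins; filled points passed an adjusted p of 0.05. Filled points occur in the 12 h panel alone, 8 above 0 and 2 below, and the SE of PRPF8, SNRNP200, SF3A1 and SF3A2 is wide in the Nutlin set.

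Members did not pass in the remaining contrasts of the Nutlin set either. For 5-Ph-IAA with Nutlin against 5-Ph-IAA, 0 of 45 passed, against 0.388% of all genes, with medians of -0.04 and 0.00. For 5-Ph-IAA with Nutlin against Nutlin, 0 passed, as did 0% of all genes, with 5 members (11.1%) and 8.14% of all genes at an unadjusted p under 0.05. The interaction of both drugs called 0 members and 0% of all genes, with 1 member and 3.61% of genes at an unadjusted p under 0.05. The 3 h effect of 5-Ph-IAA, given as that in the Nutlin set minus that in the time-course set, called 0 members, against 0.0636% of all genes. Its furthest values were SNRPA1 (0.59 ± 0.19, adjusted p = 0.705), SNRPF (-0.52 ± 0.18) and PRPF4 (-0.38 ± 0.14), the genes whose time-course DMSO libraries lay far apart. DESeq2 called 0 members in each of these contrasts.

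The wide errors of PRPF8 and its companions came from the Nutlin libraries. PRPF8 had 746 and 381 CPM with Nutlin, 623 and 679.7 CPM with 5-Ph-IAA and Nutlin, 579.9 and 636 CPM with 5-Ph-IAA, and 605 and 608 CPM in DMSO. SNRNP200 had 470.0 and 261 CPM with Nutlin, against 384 and 380.0 CPM in DMSO, and SF3A2 had 23.3 and 8.4 CPM, against 15.4 and 17.9 CPM. In each case Nutlin replicate 1 was the highest and replicate 2 the lowest of the 8 libraries. SF3B1, which fell at 12 h, ran the other way, with 598 and 755 CPM with Nutlin, against 698 and 666 CPM in DMSO. The U5 sum was 1844 and 1300.0 CPM with Nutlin, against 1692 and 1612 CPM in DMSO, while the Sm sum was 1056 and 1278 CPM, against 1184 and 1144 CPM. Over the 45 members the SD of the log2 difference between replicates was 0.44 in the Nutlin group and 0.09 to 0.21 in the other 6 groups.

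Without Nutlin replicate 1, Nutlin against DMSO called 9 members (20%, against 11.6% of all genes), 3 higher and 6 lower, with PRPF8 at -0.67, SF3A1 at -0.73 and SNRNP200 at -0.55. Without Nutlin replicate 2 it called 5 (11.1%, against 6.4% of all genes), with PRPF8 at 0.30 and SNRNP200 at 0.30 higher, and SNRPE (-0.57), DHX15 (-0.38) and DDX23 (-0.30) lower. The sign for PRPF8 and SNRNP200 therefore depended on the library kept. For 5-Ph-IAA with Nutlin against Nutlin, 13 members passed without Nutlin replicate 1 (28.9%, against 13.6% of all genes) and 0 without replicate 2 (against 0.228%). In the interaction 7 passed without replicate 1 (15.6%, against 5.65%) and 0 without replicate 2 (against 0.0272%).

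The share of counts on mitochondrial genes was low in some of the libraries with low PRPF8, but did not follow PRPF8 throughout. It was 0.163% and 0.215% in DMSO, 0.167% and 0.178% at 3 h, and 0.251% and 0.291% at 12 h. In the Nutlin set it was 0.311% and 0.189% with Nutlin, and 0.289% to 0.344% in the other 6 libraries. The Nutlin replicate with low PRPF8 thus had a mitochondrial share within that of time-course DMSO and 3 h. Nutlin replicate 1, with the highest PRPF8 of its set, had a share (0.311%) within the range of the other 6 libraries. The 12 h libraries, with high PRPF8, lay above the other time-course libraries, and 12 h replicate 2 (0.291%) lay within the range of those 6. What sets this share was not tested, and its part in the 12 h changes was not tested.

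**Figure D4:**
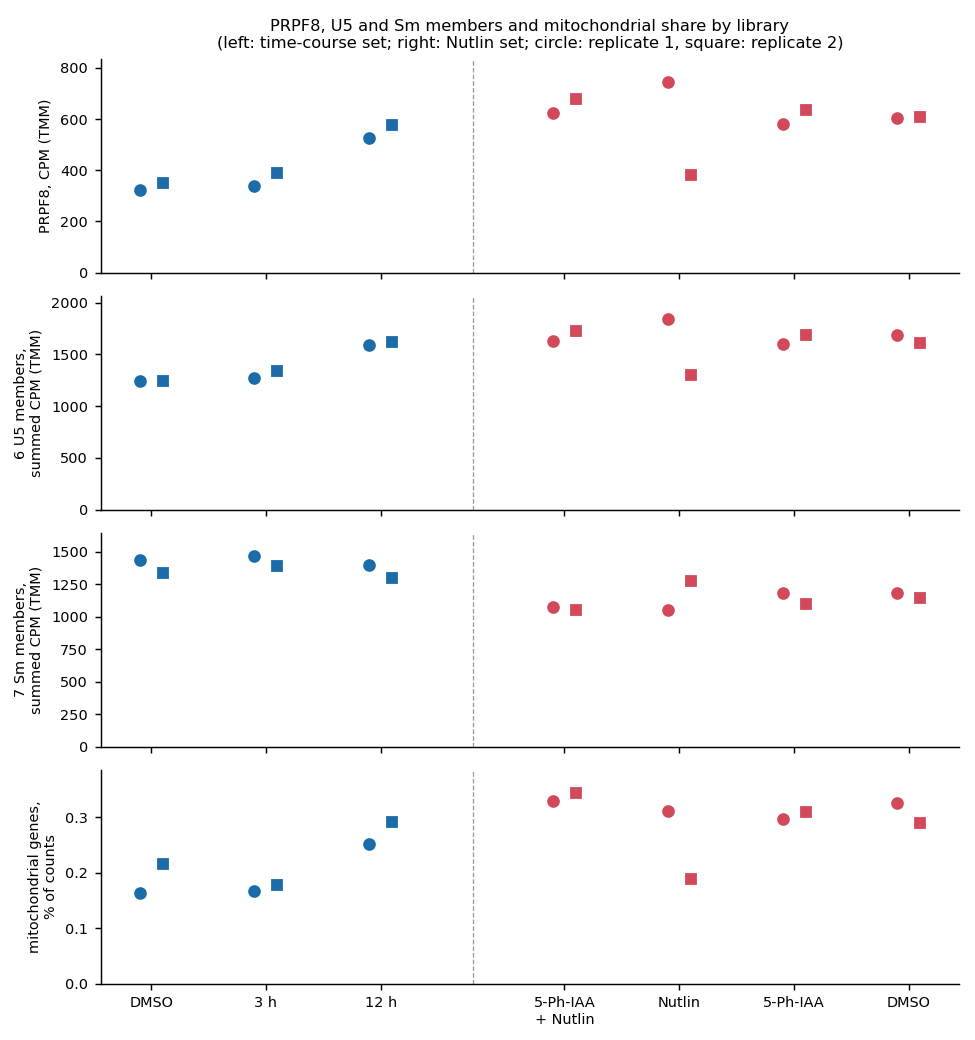
PRPF8, the sums of the 6 U5 and 7 Sm members (CPM after TMM scaling within each set) and the mitochondrial share of counts (percent) in each of the 14 libraries; circles are replicate 1 and squares replicate 2, blue marks the time-course set and red the Nutlin set. Within the time-course set PRPF8 and U5 are highest at 12 h, within the Nutlin set they are lowest in Nutlin replicate 2, and CPM are not comparable between the sets. The mitochondrial share is 0.163% to 0.215% in time-course DMSO, at 3 h and in Nutlin replicate 2, and higher in the other libraries.

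Over the 45 members, the log2 fold change of 12 h against 3 h ran with the log2 difference of Nutlin replicate 1 minus replicate 2, which shares no library with it (Pearson 0.79, Spearman 0.66, n = 45 genes, chosen after the values were seen and given as a description). For 12 h against DMSO the values were 0.66 and 0.62, and 28 of 45 members had the same sign in both. SF3A1, SF3A2, PRPF8, SNRNP200, SF3B4, PRPF19 and XAB2 were high on both axes. SNRPE, SNRPB and SF3B1, which fell between 3 h and 12 h, were low on both. For SNRPB the values were -0.35 (12 h against 3 h) and -0.28 (Nutlin), and for SF3B1 -0.28 and -0.34. SF3A2, the member with the fewest counts in the shallow library, was furthest on the Nutlin axis (1.46), and without it Pearson was 0.78 and Spearman 0.64 for 12 h against 3 h (n = 44 genes). Not all members ran together. PRPF3 had 0.39 for 12 h against 3 h and lay near 0 between the Nutlin libraries. Members with opposite signs in these 2 values included DDX23 (0.24 and -0.22) and SNRPD3 (0.19 and -0.31). The 12 h change also ran weakly with the GC content of the longest transcript (Pearson 0.40, Spearman 0.39, n = 45 genes). For PRPF8, SF3A1 and SNRNP200 the difference between the 2 Nutlin replicates (0.97, 0.97 and 0.85) was wider than the 12 h change, and what the 2 patterns share was not tested.

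**Figure D5:**
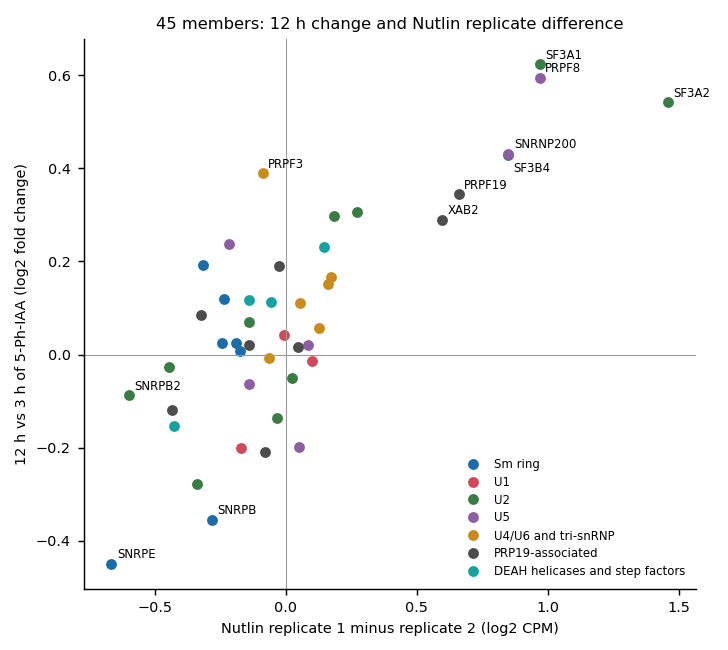
Each point is 1 of the 45 members, coloured by group of proteins; the x axis is Nutlin replicate 1 minus replicate 2 in log2 CPM and the y axis the log2 fold change of 12 h against 3 h of 5-Ph-IAA. SF3A1, SF3A2, PRPF8, SNRNP200, SF3B4, PRPF19 and XAB2 lie at the upper right, SNRPE, SNRPB and SF3B1 at the lower left, and PRPF3 is high on the y axis alone.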

How the data were processed

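Gene tables deposited by the authors hold, per the file headers, RSEM expected counts, TPM and FPKM for each gene in 14 libraries. Tools named in the submitters' processing notes are STAR 2.7.10b, RSEM and DESeq2 1.48.1, the genome build is hg38 (GRCh38), and no roles are given. The annotation release is not given in the sources used here. Symbols matched 61463 of 78686 identifiers (78.1%), and positions came from GENCODE 29. Depth per library and its limits are given with the samples. PCR copies could not be told from molecules.

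Expected counts were rounded and fitted within each set in R 4.3.3 with edgeR 4.0.16: TMM, filterByExpr (minimum count 10, minimum total 15), quasi-likelihood F tests, 1 coefficient per group, and two-sided p-values adjusted by Benjamini-Hochberg over all 19049 (time-course set) or 17251 (Nutlin set) tested genes, with a threshold of 0.05. The effect of 3 h was compared between sets in 1 fit of 18873 genes. The SE is the log2 fold change divided by the square root of F. CPM are TMM-scaled within a set and not comparable between sets. Levels per length are the authors' TPM, which rests on effective length; deposited FPKM served only to check the order of levels. Of the 45 members, 12 had expected counts that were not whole (beyond 0.001) in some library, and 16 have pseudogenes by symbol.

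Members and lists were chosen with earlier results of these data known. Named genes are the members that passed, SNRPB, SNRNP70, SF3B1, PRPF8, PRPF31, PRPF19 and DHX15 in each comparison with a vehicle and between times, up to 4 non-overlapping members that did not pass, and up to 4 genes per other list, of which 1 gene is not reported here. Alternatives were DESeq2 1.42.0, RLE factors, no filter, a replicate block, a GC correction (span 0.3), each library left out, the compared groups only, and thinning to 3.54 M counts. The fits were also run on simulated counts with known changes, and the share of changes recovered is not reported here.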

Additional observations from a re-analysis of the deposited data

How the results depend on the processing

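Counts of members that passed stayed within 1.5 times of the reported count in 104 of 119 repeats. Most of these were repeats of comparisons with 0 members reported, where 0 again counted as staying. The total therefore says little about the 12 h comparisons, the only ones with calls. At 12 h of 5-Ph-IAA against DMSO, DESeq2 called 16 members, and leaving out a library gave 6 to 15. Among these fits with a library left out, the share of all genes that passed was also lowest where 6 members passed. It was highest where 15 did, so the number of members followed that of all calls at both ends. For 12 h against 3 h, 8 members were reported (17.8%, against 8.14% of all genes). Leaving out any library gave fewer calls, among the members and among all genes. At 3 h against DMSO, 1 member passed without the low-count filter (2.22%, against 0.6% of all genes), and the calls changed without DMSO replicate 1. With a library left out, Nutlin against DMSO gave 0 to 9 members, 5-Ph-IAA with Nutlin against Nutlin 0 to 13, and the interaction 0 to 7. Among the compared groups only, 1 member passed for 5-Ph-IAA with Nutlin against 5-Ph-IAA (2.22%, against 3.78% of all genes). The 3 h difference between sets gave 2 members without the low-count filter and 0 to 4 with a library left out. Without the filter these 2 were 4.44% of the members, against 0.489% of all genes. With a library left out, members passed only without time-course DMSO replicate 1. The share of all genes that passed was also highest there. The cause was not tested for any of these changes in the number of calls.

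A replicate block called 14 members at 12 h against DMSO (31.1%, against 13.1% of all genes) and 9 for 12 h against 3 h (20%, against 9.98%). With the GC correction as well it called 9 and 9 (20% each, against 6.13% and 6.06% of all genes). Elsewhere it called 0. Same-numbered replicates deviated together with correlations of -0.09 to 0.05, so the numbers were not taken to pair the libraries.

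Among named genes, 38 of 933 repeats changed sign, each in a gene that did not pass in the reported analysis. DHX15 had 0.31 at 12 h against DMSO and 0.16 against 3 h with the GC correction (0.30 and 0.16 with the block added). SNRNP70 at 12 h against 3 h had -0.073 with the GC correction, -0.080 with the block added, and -0.075 to 0.099 with a library left out. At 3 h, SNRPB had -0.034 to 0.29 and PRPF31 -0.020 to 0.41 with a library left out, both below 0 without DMSO replicate 2. With a library left out, the lone library of that group is assumed to vary like the others. In the Nutlin set, leaving out a library gave, for Nutlin against DMSO, -0.67 to 0.30 for PRPF8, -0.44 to 0.22 for PRPF19, -0.38 to 0.057 for DHX15, -0.19 to 0.15 for SF3B1 (0.0062 with the GC correction, 0.0062 with the block added), -0.14 to 0.15 for SNRPB (-0.0020 with block and GC correction) and -0.079 to 0.045 for SNRNP70. For 5-Ph-IAA against DMSO it gave -0.061 to 0.066 for PRPF8, -0.12 to 0.0034 for PRPF19, -0.12 to 0.045 for SNRPB, -0.047 to 0.056 for PRPF31 and -0.027 to 0.095 for SNRNP70. For 5-Ph-IAA with Nutlin against DMSO it gave -0.12 to 0.0017 for SNRNP70, -0.068 to 0.030 for PRPF31 (0.012 with the GC correction, 0.012 with the block added) and -0.028 to 0.013 for PRPF19 (0.018 and 0.019, and 0.0014 without the low-count filter). Depth was lowest in the 3.54 M library, where SF3A2 had 63 counts. Thinning the time-course libraries to that depth kept all 10 calls at 12 h against DMSO.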

Other observations

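The SMN complex loads Sm proteins onto small nuclear RNA, after the methylosome has modified them, and of 14 genes for these steps 1 rose and 2 fell at 12 h of 5-Ph-IAA against DMSO (3.39% of all genes rose and 7.97% fell). GEMIN4, a subunit of the SMN complex, rose, with 92.8 and 83.6 CPM at 12 h, against 73.5 and 55.6 CPM in DMSO (0.46 ± 0.13, adjusted p = 0.0354, edgeR). TGS1, which adds methyl groups to the cap of small nuclear RNA, fell, with 66.9 and 71.5 CPM, against 92.4 and 92.9 CPM (-0.43 ± 0.09, adjusted p = 0.00883), and so did STRAP, with 172 and 171 CPM, against 199.8 and 231 CPM (-0.33 ± 0.08, adjusted p = 0.0253). In all 3 genes the groups did not overlap. The median over the 14 genes was -0.07, against -0.00 for all genes. With Nutlin, GEMIN4 had 91.8 and 75.2 CPM, against 106 and 116 CPM in DMSO (-0.41 ± 0.11, adjusted p = 0.224), and -0.27 without Nutlin replicate 2 and -0.55 without replicate 1, which passed.

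Of 12 proteins of the minor spliceosome, which removes a rare class of introns, 0 passed at 12 h against DMSO by edgeR, against 11.4% of all genes. At an unadjusted p under 0.05 there were 3 of 12, against 25.3% of all genes. The median of the 12 was 0.04. None passed at 3 h or in the Nutlin set.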
